A study of Mus musculus with 14 samples.

Results

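The 10 genes described here belong to the Notch pathway: the ligands Dll4, Dll1, Jag1 and Jag2, the ligand ubiquitin ligase Neurl1b, the receptors Notch1, Notch2 and Notch3, and the target genes Hes1 and Hey1. They are 10 of the 24465 genes counted, and 28 of the 40772 H3K27ac regions were tied to 5 of them by gene symbol. The list was drawn up with the RNA values of the same libraries known, so the RNA levels and fold changes below are a description of these genes and not evidence that the pathway as a whole moved. The rule for the list uses no H3K27ac value, although earlier H3K27ac results were also known.

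The cells were Y1, an established line from a mouse adrenocortical tumour. All libraries came from cells starved of serum for 48 h and then stimulated for 5 h. In the FGF-2 group the stimulus was fetal bovine serum at 10% together with FGF-2, fibroblast growth factor 2, at a dose of 10 ng/ml, and in the serum group it was the same serum alone, so serum was common to both. RNA was sequenced from 3 libraries per group, and chromatin immunoprecipitated for H3K27ac, a histone mark of active promoters and enhancers, from 2 per group with an input each. The labels do not say whether the libraries of a group came from separate cultures, so tests measure the spread between these libraries only, and 1 cell line stands for adrenocortical cells.

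Notch receptors sit in the plasma membrane and are activated by ligands of the Delta-like and Jagged families on a neighbouring cell. Binding lets proteases cut the receptor, and its released intracellular domain joins the DNA-binding protein RBPJ in the nucleus to switch on genes such as those of the Hes and Hey families of repressors. Ubiquitin ligases of the Mindbomb and Neuralized families act on the ligand in the cell that sends the signal.

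The 250 bases before the start site are shown for 5 of the genes, those whose RNA differed most between the groups among ligands, ligase and receptors and for which RefSeq (GRCm38.p6) lists a window, Jag2 aside. Jag2 is left out because its counts were low. The sequences are 5′ to 3′ on the strand of the gene, the start site follows the last base, and capitals mark CG pairs. The windows lie at chr2:119325534-119325783 on the plus strand for Dll4, chr2:137116521-137116770 on the minus strand for Jag1, chr17:26414609-26414858 on the plus strand for Neurl1b, chr3:98013288-98013537 on the plus strand for Notch2 and chr17:32166891-32167140 on the minus strand for Notch3.
Dll4: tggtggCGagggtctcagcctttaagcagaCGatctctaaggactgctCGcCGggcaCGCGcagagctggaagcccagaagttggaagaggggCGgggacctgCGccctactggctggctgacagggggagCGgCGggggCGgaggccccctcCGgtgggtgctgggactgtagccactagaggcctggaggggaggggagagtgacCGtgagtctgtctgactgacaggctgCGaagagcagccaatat
Jag1: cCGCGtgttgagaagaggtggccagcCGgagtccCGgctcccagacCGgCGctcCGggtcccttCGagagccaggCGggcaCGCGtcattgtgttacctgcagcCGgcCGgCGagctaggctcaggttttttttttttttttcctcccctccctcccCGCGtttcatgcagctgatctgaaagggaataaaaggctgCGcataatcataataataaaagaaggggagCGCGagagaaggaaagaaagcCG
Neurl1b: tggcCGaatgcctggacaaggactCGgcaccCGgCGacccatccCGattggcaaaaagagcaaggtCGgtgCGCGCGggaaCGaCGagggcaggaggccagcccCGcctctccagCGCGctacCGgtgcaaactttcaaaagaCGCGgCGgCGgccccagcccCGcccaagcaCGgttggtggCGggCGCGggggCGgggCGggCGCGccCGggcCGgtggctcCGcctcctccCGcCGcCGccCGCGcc
Notch2: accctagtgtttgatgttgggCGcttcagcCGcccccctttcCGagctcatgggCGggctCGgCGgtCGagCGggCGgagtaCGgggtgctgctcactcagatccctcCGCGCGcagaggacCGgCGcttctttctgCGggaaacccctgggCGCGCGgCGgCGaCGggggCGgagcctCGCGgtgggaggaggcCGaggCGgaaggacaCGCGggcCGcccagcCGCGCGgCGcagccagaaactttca
Notch3: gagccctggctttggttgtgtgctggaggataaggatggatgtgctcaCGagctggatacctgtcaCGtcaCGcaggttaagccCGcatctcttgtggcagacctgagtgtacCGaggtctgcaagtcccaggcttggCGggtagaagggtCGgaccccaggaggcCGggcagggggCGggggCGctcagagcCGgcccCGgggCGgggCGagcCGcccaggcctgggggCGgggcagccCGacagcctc

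The windows differed in CG pairs, with 14 in Dll4, 20 in Jag1, 36 in Neurl1b, 34 in Notch2 and 17 in Notch3, against a median of 6 over all 32851 windows of the table. A window was listed for 8 of the 10 genes, 9 windows in all because Dll1 had 2. The target genes Hes1 and Hey1 had no window, so the motif search covers ligands, ligase and receptors only. Searched on both strands, none of the 9 held the RBPJ core TGGGAA, found in 21.6% of all windows, or its longer form GTGGGAA, found in 5.42%. The ETS motif CCGGAA (12% of all windows), the CRE motif TGACGTCA (1.55%) and the E-box CACGTG (6.02%) were also in none of them. The AP-1 motif TGANTCA, in 6.75% of all windows, was in 1 of the Dll1 windows, its first base 109 bases upstream of the start. The N-box CACNAG, the binding motif of Hes repressors, was in 36.7% of all windows and in 4 of the 9, those of Dll4 (75 bases upstream), Notch1 (108), Notch2 (247) and Notch3 (204 and 159).

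The 6 RNA libraries held 5625004 to 12696426 counts assigned to genes. Of 10374 genes that passed the filter on low counts, edgeR's quasi-likelihood test with Benjamini-Hochberg adjustment called 2295 higher (22.1%) and 2512 lower (24.2%) with FGF-2 at an adjusted p under 0.05. With scaling by library totals in place of TMM the split was 1035 higher and 4673 lower, and the median log2 fold change of all genes moved to -0.36 from -0.02. Serum library 3 stood apart, with a score on the first principal component of 29.5 against 52.4 and 50.6 in the other serum libraries and -53.9 to -37.0 in the FGF-2 libraries. On the second component FGF-2 library 3 (-20.1) and serum library 3 (-20.8) lay together, apart from the other FGF-2 libraries (12.9 and 15.6) and the other serum libraries (5.55 and 6.96).

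Defining markers of the labelled cell type were uneven. Nr5a1, Cyp11a1 and Star were counted in every library, whereas Mc2r, the ACTH receptor, had 0 to 2 counts and Nr0b1 was listed at 0. The 10 adrenocortical markers summed to 2390 to 3850 CPM (counts-per-million values, scaled to the size of the library) with FGF-2 and 746 to 998 CPM with serum. Star, most of the sum with FGF-2, was called higher, while 2 of the 7 tested markers were called lower. Of 10 endothelial markers, in cells where Dll4 and Notch receptors are prominent in tissue, 1 passed the filter, Pecam1, which was called lower, and Tek, Emcn and Erg were at 0. Their sum was 5.91 to 7.05 CPM with FGF-2 and 6.59 to 10.4 CPM with serum. The 7 medullary markers summed to 1.5 to 2.71 CPM with FGF-2 and 5.35 to 7.02 CPM with serum, with Ddc, the 1 member tested, called lower and Th and Dbh among those at 0. The 9 fibroblast and capsule markers, mostly Col1a1, had 4 tested members and no call, with sums of 2040 to 2830 CPM with FGF-2 and 2800 to 3500 CPM with serum. Col1a2 and Dcn were at 0, beside 58752 Col1a1 counts with FGF-2 and 75423 with serum. The 6 blood markers had 1 tested member and no call, with sums of 6.35 to 7.89 CPM with FGF-2 and 4.49 to 9.28 CPM with serum. Hba-a1 and Hbb-bs were at 0. Whether a listed count of 0 in any of these lists means absent RNA was not tested. In bulk libraries, fewer cells of a type and less RNA per cell cannot be told apart. The part of these differences in the Notch values was not tested.

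Of the 10 genes, 7 passed the filter, and the test called 3 of them higher, Dll4, Jag1 and Notch2, and 4 lower, Neurl1b, Jag2, Notch3 and Hes1. No gene that passed went without a call, and the shares of all tested genes, 22.1% and 24.2%, stand beside these counts for scale only because the contrast was known when the list was made. Dll4 passed the filter only through the FGF-2 libraries, with 1 serum library reaching the minimum. Neurl1b passed only through the serum libraries, with 1 FGF-2 library reaching it. The filter thus favoured a difference in both genes. Jag2 reached the minimum in all serum libraries and 2 FGF-2 libraries. Dll1, Notch1 and Hey1 did not pass. Counts below are given as CPM after TMM scaling, and gene lengths were not used here, so levels are compared between groups and not between genes.

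**Figure D1:**
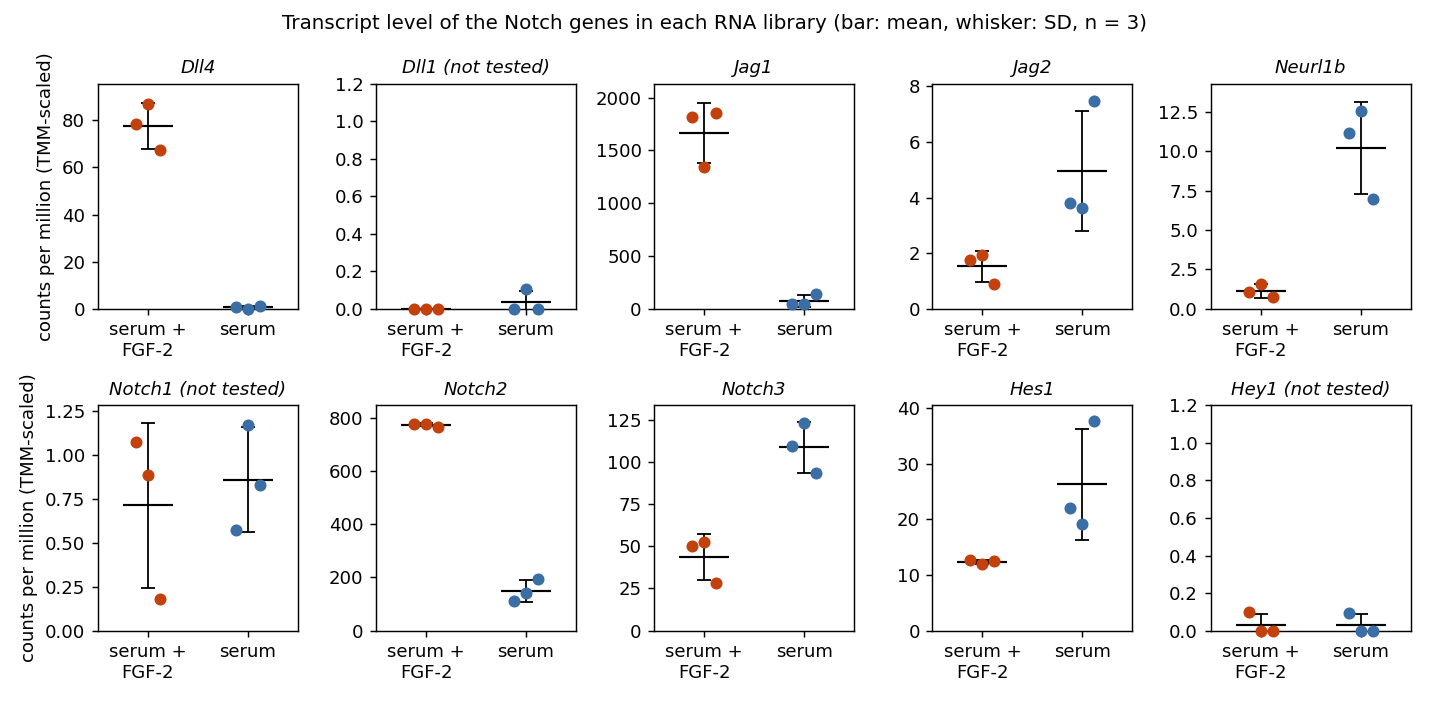
Transcript level of each of the 10 Notch genes in CPM after TMM scaling, one panel per gene with its own vertical axis from 0. Points are the 3 libraries with serum and FGF-2 and the 3 with serum alone, bars the means and whiskers the SD. Dll1, Notch1 and Hey1 were not tested.

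Dll4, a Delta-like ligand best known from sprouting blood vessels, was the ligand with the widest difference. It had 78.5, 87.0 and 67.5 CPM in the FGF-2 libraries and 0.859, 0 and 1.16 CPM in the serum libraries, or 806, 987 and 373 counts against 9, 0 and 7. Every FGF-2 library lay far above every serum library, none of which held more than 9 counts. The means were 77.7 ± 9.80 CPM with FGF-2 and 0.673 ± 0.602 CPM with serum (SD, n = 3 each), and the fitted log2 fold change was 6.94 ± 0.39 (SE; 95% interval 6.03 to 7.85). Without serum library 2, which held no Dll4 count, the value was 6.30, and without serum library 3 it was 7.39.

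Jag1, a Jagged ligand that binds several Notch receptors, also stood far higher. Its levels were 1816, 1341 and 1850 CPM with FGF-2 and 46.5, 41.4 and 138.6 CPM with serum. Serum library 3 held the highest serum level and was still below all FGF-2 libraries. The means of 1669 ± 285 CPM with FGF-2 and 75.5 ± 54.7 CPM with serum (SD, n = 3 each) gave a log2 fold change of 4.48 ± 0.54 (SE; 95% interval 3.18 to 5.78), which was 5.25 without serum library 3.

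The other Jagged gene, Jag2, was counted at a low level and lay the other way. It had 1.75, 1.94 and 0.904 CPM in FGF-2 libraries, from 18, 22 and 5 counts, and 3.82, 3.61 and 7.46 CPM in serum libraries, from 40, 34 and 45 counts. The groups did not overlap, and the log2 fold change was -1.57 ± 0.38 (SE). Dll1, a Delta-like ligand, had no count in any FGF-2 library and 1 count in serum library 2. A count of 0 allows up to 0.236 to 0.469 CPM in an FGF-2 library (3 counts of its gene counts before TMM scaling, counting error only), so no difference in Dll1 was detectable at this depth.

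Neurl1b, a ligase of the Neuralized family, differed most in the downward direction. The FGF-2 libraries held 1.07, 1.59 and 0.723 CPM, from 11, 18 and 4 counts, and the serum libraries 11.2, 12.5 and 6.96 CPM, from 117, 118 and 42 counts. All serum libraries were above all FGF-2 libraries, with serum library 3 the nearest. Mean levels were 1.13 ± 0.43 CPM with FGF-2 and 10.2 ± 2.91 CPM with serum (SD, n = 3 each), and the log2 fold change was -3.10 ± 0.32 (SE; 95% interval -3.82 to -2.38).

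Among the receptors, Notch2 and Notch3 lay in opposite directions. Notch2 had 778, 778 and 767 CPM with FGF-2 and 111, 143 and 195 CPM with serum, a log2 fold change of 2.38 ± 0.19 (SE; 95% interval 1.95 to 2.80). The FGF-2 libraries were nearly equal, while the serum libraries spread over a wider range below them. Notch3, a receptor prominent in vascular smooth muscle, had 50.4, 52.5 and 28 CPM with FGF-2 and 109.3, 123 and 93.5 CPM with serum, a log2 fold change of -1.30 ± 0.22 (SE; 95% interval -1.81 to -0.79). FGF-2 library 3 was the lowest of all, and no FGF-2 library reached a serum library. Notch1 had 11, 10 and 1 counts with FGF-2 and 6, 11 and 5 counts with serum, which overlap, and in a fit without the filter its log2 fold change was -0.11.

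Of the target genes, Hes1, a repressor widely used as a readout of Notch signalling and also set by other pathways, was lower. It had 12.7, 11.9 and 12.5 CPM in FGF-2 libraries and 22.1, 19.1 and 37.6 CPM in serum libraries. The FGF-2 libraries were alike, and serum library 3 was the highest. The log2 fold change was -1.07 ± 0.24 (SE; 95% interval -1.61 to -0.53) and -0.74 without serum library 3. Hey1, a repressor of the Hey family, had 1 count in FGF-2 library 1, 1 in serum library 1 and none elsewhere. The calls and directions of the 7 genes were kept in all 98 values recomputed with another tool, scaling, filter, threshold, a replicate block or a library left out. These refits used the same libraries whose values were known when the list was made, so they describe the processing only.

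The rest of the pathway was read from 51 other genes listed by role, of which 37 passed the filter. The test called 10 higher and 11 lower and left 16 without a call, with a median log2 fold change of -0.04 against -0.02 over all genes tested. Of all genes tested, 22.1% were higher and 24.2% lower, so these counts are near the background and say nothing particular to the pathway, and the counts by role below are to be read against the same shares. Scaling by library totals made this split 5 and 18. Genes named below are those called with a mean of at least 1 CPM, up to 6 in each direction by size.

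Of the other ligands, 2 of 4 were tested, and Dlk2, a non-canonical Delta-like protein, was lower at 20.3 ± 3.36 CPM with FGF-2 and 60.4 ± 10.7 CPM with serum (SD, n = 3 each). Notch4, the fourth receptor, passed the filter without a call. Of the 3 other ligand ligases, Mib1 was higher (135 ± 13.1 CPM with FGF-2 and 72.2 ± 3.04 CPM with serum; log2 fold change 0.90 ± 0.11, SE) and so was Neurl1a (97.5 ± 24.1 CPM with FGF-2 and 59.8 ± 4.53 CPM with serum; 0.71 ± 0.17), a ligase of the same family as Neurl1b. With library totals Neurl1a had a log2 fold change of 0.38 and no call (edgeR adjusted p = 0.111).

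All 6 genes of receptor glycosylation and maturation were tested, with 2 higher and 2 lower. Furin, the protease that cuts the receptor during its maturation, had 588, 652 and 636 CPM with FGF-2 and 251, 303 and 277 CPM with serum, and no library of one group reached the other. Mfng, a Fringe glycosyltransferase that alters which ligands a receptor answers to, was higher by a log2 fold change of 1.81 ± 0.35 (SE) from low counts, 42, 43 and 21 with FGF-2 and 11, 6 and 11 with serum. Pofut1, which adds the O-fucose that Fringe enzymes extend, was lower by a log2 value of -0.96.

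Of the genes for receptor cleavage, 8 of 9 were tested, none was called higher and 3 were lower, where 24.2% of all tested genes were lower. Aph1b, a subunit of the gamma-secretase complex, had 10.9, 10.8 and 11 CPM with FGF-2 and 32.2, 39.8 and 38.8 CPM with serum. Psen2, a catalytic subunit of that complex, was lower by a log2 fold change of -1.31 ± 0.16 (SE).

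Receptor turnover split 3 higher and 2 lower among 8 tested of 9. Dtx2, Dtx1 and Dtx3l are Deltex-family ubiquitin ligases: the log2 fold change was 0.75 for Dtx2, -1.72 for Dtx1 and -0.82 for Dtx3l. Dtx1 passed the filter only through the serum libraries, with 9, 9 and 4 counts with FGF-2 and 26, 35 and 10 with serum. The filter thus favoured a difference in Dtx1. In the nuclear complex and its corepressors, 8 of 11 were tested, with 3 higher and 2 lower. Tle1, a Groucho-family corepressor that works with Hes proteins, had 44.1, 42.8 and 44.9 CPM with FGF-2 and 16.6, 17.5 and 26.4 CPM with serum. Of 8 other genes listed as targets, 1 was tested, Hes6, named here for that reason. It was called lower, with a log2 fold change of -0.67 ± 0.17 (SE).

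**Figure D2:**
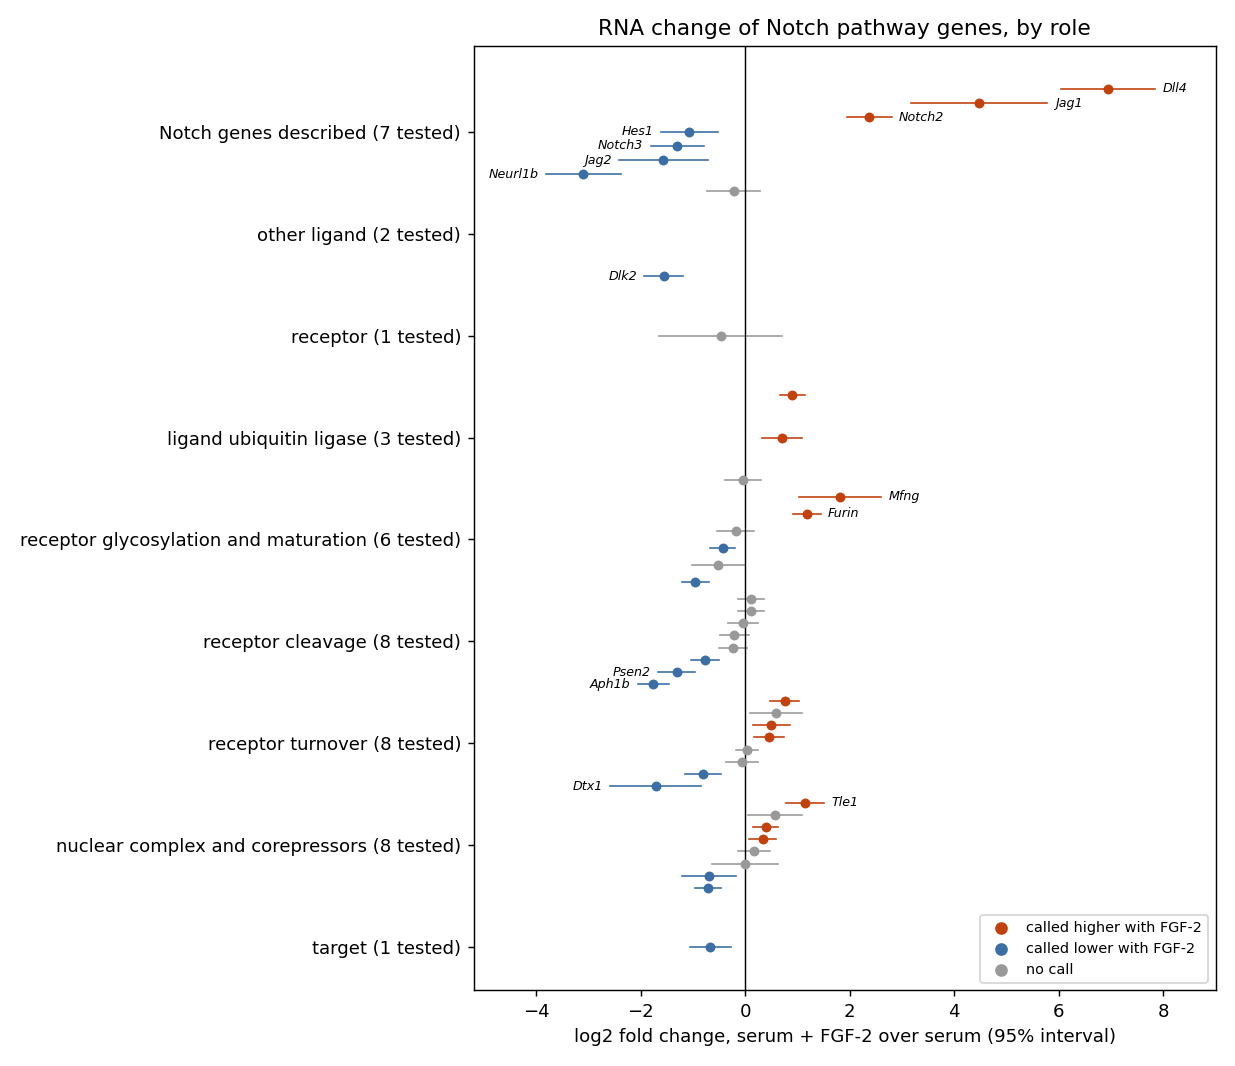
Log2 fold change of RNA, serum with FGF-2 over serum alone, for the 7 tested Notch genes and the 37 other tested genes of the pathway, grouped by role. Points are fitted values with 95% intervals, coloured by call, and genes called with an absolute value above 1 are named; Dll4 at 6.94 lies farthest to the right and Neurl1b at -3.10 farthest to the left.

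RBPJ is the DNA-binding partner of the Notch intracellular domain, and its gene drew attention after its values were seen. Rbpj had 0, 4 and 3 counts with FGF-2 and 0, 1 and 1 with serum, and Spen, the gene of a corepressor that binds RBPJ, was listed at 0 throughout, as was the target gene Nrarp. In the authors' deposited table, however, the H3K27ac region over the Rbpj start site had signals of 504 and 565 with FGF-2 and 604 and 440 with serum, and the one at the Spen start site 231 and 272 with FGF-2 and 332 and 208 with serum. RefSeq lists 3 Rbpj pseudogenes, and whether they shared its reads was not tested. The counts of Rbpj, Spen and Nrarp are given as listed, and no statement that these genes were silent is made from them.

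H3K27ac offers a second readout of the same genes. A region table deposited by the authors held 40772 regions, of which 3398 (8.33%) were higher and 670 (1.64%) lower with FGF-2 at their false discovery rate under 0.05. Jag1 had 5 regions, Neurl1b 6, Notch2 8, Notch3 2 and Hes1 7, and Dll4, Dll1, Jag2, Notch1 and Hey1 had none tied to them. Of the 28 regions in the authors' deposited table, 2 were higher, both in Notch2, 2 were lower, both at Hes1, and 24 had no call. The log2 fold was below 0 in 19 of the 28, with a median of -0.30 against 0.11 over all regions of the same table. By gene, it was below 0 in 6 of 6 regions of Neurl1b, 6 of 7 of Hes1 and 4 of 5 of Jag1. It was below 0 in 1 of 2 regions of Notch3 and 2 of 8 of Notch2. The 28 regions come from 5 genes, so the pooled count does not describe the Notch genes as a set.

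**Figure D3:**
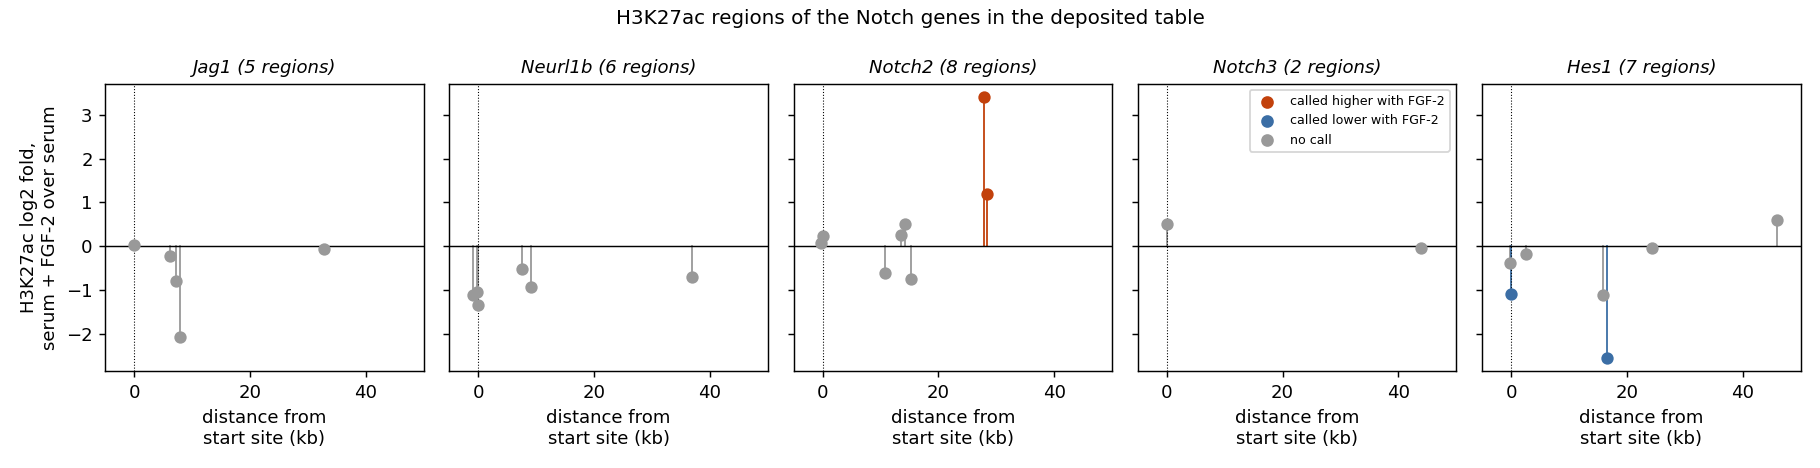
H3K27ac log2 fold in the authors' deposited table, serum with FGF-2 over serum alone, of the 28 regions tied to 5 Notch genes, against the distance in kb from the start site (positive downstream). Colours give the call at a false discovery rate under 0.05; the 2 regions called higher lie about 28 kb inside Notch2, and the 2 called lower at the Hes1 start site and 16.6 kb downstream of it.

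The region with the lowest false discovery rate of the 28 lay in the first intron of Notch2, 28.4 kb downstream of the start site. This region (mm10 chr3:98041927-98045519) had signals of 323 and 260 in the FGF-2 libraries and 143 and 112 in the serum libraries, in reads scaled by the authors. Both FGF-2 libraries were above both serum libraries, and the authors' deposited table gave a log2 fold of 1.20 with a false discovery rate of 3.67e-05. A short neighbour just upstream (chr3:98041301-98041542) had signals of 10.5 and 18.0 with FGF-2 and 1.84 and 0.840 with serum, from 11, 18, 2 and 1 reads, and the authors' deposited table gave 3.41 with a false discovery rate of 0.0448. No region of the table has less than 1 read in a library, so the lowest value can stand for no read and the fold against it is not a bound. With FGF-2 library 1 left out of an edgeR fit on reads recovered from the signal, the wide region lost its call at a log2 fold of 1.03 (adjusted p = 0.163), and with FGF-2 library 2 left out the short one lost it at 2.89 (adjusted p = 0.131).

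At the Notch2 start site itself the mark was high in both groups. The signals were 214 and 209 with FGF-2 and 207 and 151 with serum, and the authors' deposited table gave a log2 fold of 0.24 with a false discovery rate of 0.679. The edgeR interval for this difference ran from -0.26 to 0.74, beside an RNA log2 fold change of 2.38. Of the 8 Notch2 regions, 6 had a log2 fold above 0, where the median over all regions of the table was itself above 0, at 0.11.

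Of the 7 regions tied to Hes1, 2 had less H3K27ac with FGF-2, beside less RNA, and the others had no call. Uncalled regions 15.9, 24.4 and 46.0 kb downstream had log2 folds of -1.11, -0.04 and 0.59 in the authors' deposited table. The region over the Hes1 start site and gene body (chr16:30065355-30067553) had signals of 132 and 108 with FGF-2 and 281 and 226 with serum. Neither FGF-2 library reached a serum library, and in the authors' deposited table the log2 fold was -1.08 with a false discovery rate of 0.000383. A region 16.6 kb downstream (chr16:30081986-30082556), annotated as intergenic, had 2.85 and 8 with FGF-2 and 35.9 and 27.6 with serum, with a log2 fold of -2.55 and a false discovery rate of 0.00725 in the authors' deposited table. The flanks of the gene had no call: the region ending just upstream of the start site had a log2 fold of -0.38 and the one 2.6 kb downstream -0.17 in the same authors' deposited table. In the edgeR fit the start-site region had no call without FGF-2 library 1 (-1.23, adjusted p = 0.119) or without FGF-2 library 2 (-0.94, adjusted p = 0.25), and the distal one kept its call with each of the 4 libraries left out, at a log2 fold of -1.97 without FGF-2 library 1 and -3.42 without FGF-2 library 2.

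At the Jag1 promoter the mark was high in both groups and had no call. The wide region over the start site (chr2:137113450-137117974) had signals of 325 and 329 with FGF-2 and 361 and 284 with serum, which overlap. The authors' deposited table gave a log2 fold of 0.02 with a false discovery rate of 0.980, and the edgeR interval for the difference ran from -0.46 to 0.50, beside an RNA log2 fold change of 4.48. The sign of so small a value turned to -0.08 with TMM scaling and to -0.14 without serum library 2. In the second intron, 7.9 kb downstream, a weak region had 0.950 and 7 with FGF-2 and 19.3 and 14.2 with serum, for a log2 fold of -2.08 and a false discovery rate of 0.161 in the authors' deposited table, whereas edgeR on recovered reads called it lower (adjusted p = 0.0223). The size and the call rest on single libraries: the log2 fold was -1.24 without FGF-2 library 1 (adjusted p = 0.471) and -3.99 without FGF-2 library 2 (0.0128), and the call was absent without serum library 1 (0.147) and with TMM scaling (0.0528).

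At Neurl1b all 6 regions had a log2 fold below 0 in the authors' deposited table, from -1.34 to -0.51, and none was called. The region at the start site (chr17:26414843-26415486), whose upstream sequence is printed above, had 14.3 and 13.0 with FGF-2 and 41.4 and 27.6 with serum. The groups did not overlap, and the false discovery rate in the authors' deposited table was 0.129, whereas edgeR on recovered reads gave a log2 fold of -1.33 with an adjusted p of 0.0268. That call was absent with the replicate block (adjusted p = 0.0717) and without FGF-2 library 1 (0.165), FGF-2 library 2 (0.186) or serum library 1 (0.21), while the log2 fold stayed between -1.59 and -1.01 with each library left out. The edgeR fit called 12.6% of all regions higher and 3.65% lower, against 8.33% and 1.64% in the authors' table, and 5 regions of the Notch genes lower instead of 2. Scaled by TMM, the same fit called 4436 regions higher and 2500 lower in place of 5120 and 1487.

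Notch3 had the mark over its start site without a call, and its sign was opposite to that of its RNA. The region (chr17:32165304-32166889) had 133 and 138 with FGF-2 and 112 and 77.7 with serum. Both FGF-2 libraries were above both serum libraries, and the authors' deposited table gave a log2 fold of 0.51 with a false discovery rate of 0.298. The edgeR interval ran from -0.02 to 1.05, and without serum library 1 the value was 0.80 and passed (adjusted p = 0.0174), against an RNA log2 fold change of -1.30.

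**Figure D4:**
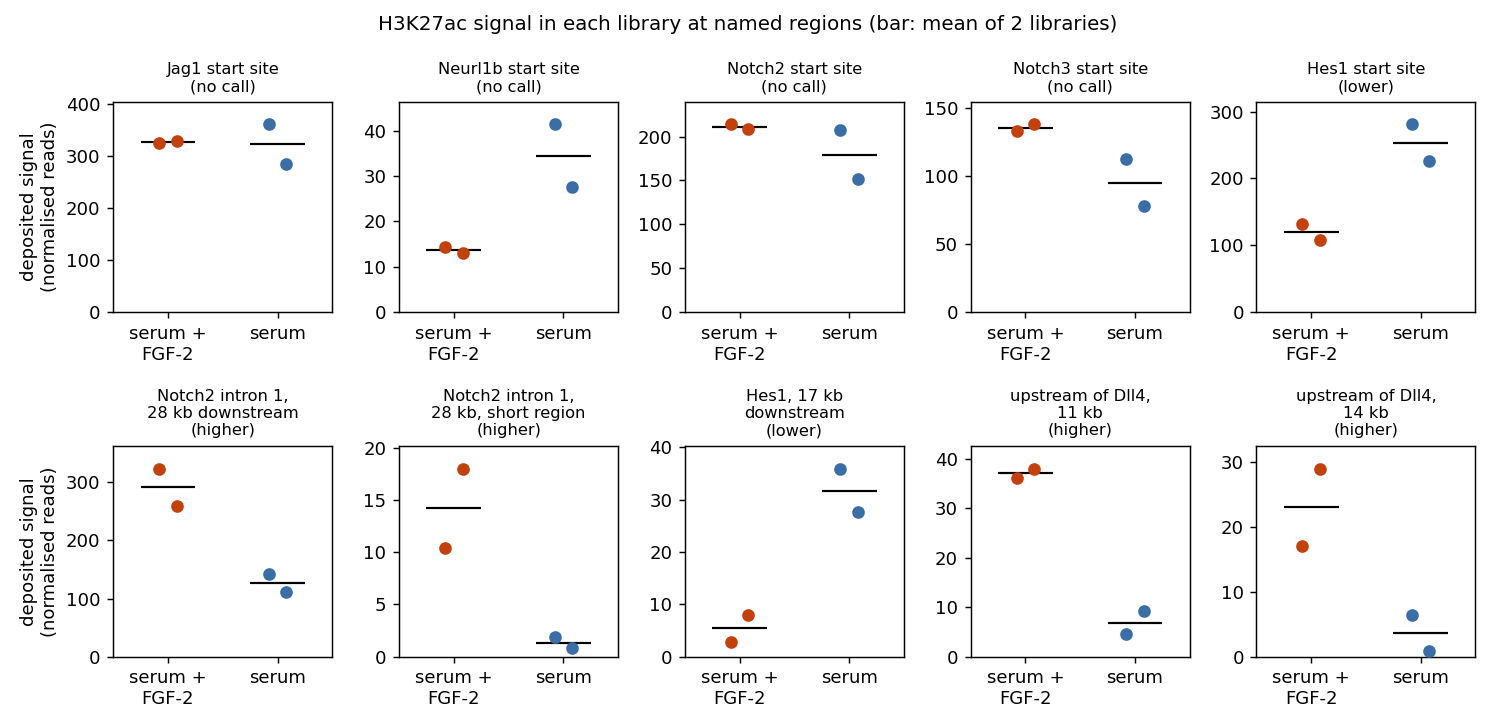
Deposited H3K27ac signal, in reads scaled by the authors, of the 2 libraries with serum and FGF-2 and the 2 with serum alone at 10 regions, each panel with its own axis from 0. Bars are means of 2 libraries, and the call in the authors' deposited table is given above each panel. The regions drawn are 5 start sites and further called regions in Notch2, downstream of Hes1 and upstream of Dll4.

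Dll4 had no region tied to it and no peak within 1 kb of the gene in any of the 4 libraries, although its RNA differed most. Regions within 50 kb of a Notch gene that the table ties to another gene were read after the values above had been seen. Around Dll4 there were 8, of which 5 were tied to Gm14207, a noncoding RNA gene of the opposite strand that shares 414 bases with the beginning of Dll4. Those nearest to Dll4 had no call. They lay 1.7 kb downstream and 4.0 and 4.7 kb upstream, at log2 folds of 0.68, 1.25 and 1.62 in the authors' deposited table. The one 1.7 kb downstream had a peak in all 4 libraries. The other 2 of the 5 were higher in the authors' deposited table, where 8.33% of all regions were higher. The nearer of these (chr2:119314487-119315082), 10.7 kb upstream of Dll4, had 36.1 and 38.0 with FGF-2 and 4.60 and 9.19 with serum, a log2 fold of 2.43 and a false discovery rate of 0.00343 in the authors' deposited table. The farther one (chr2:119311606-119312233), 13.6 kb upstream, had 17.1 and 29.0 with FGF-2 and 6.45 and 0.840 with serum, a log2 fold of 2.66 and a false discovery rate of 0.0273 in that authors' deposited table. Neither had a peak in a serum library, and each had 1 in both FGF-2 libraries. The nearer region kept its call in the edgeR fit with each library left out, and the farther one had none without FGF-2 library 2 (2.24, adjusted p = 0.112) or serum library 2 (1.82, adjusted p = 0.054), and a log2 fold of 4.60 without serum library 1.

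Gm14207 itself had 19, 26 and 6 counts with FGF-2 and 1, 0 and 0 with serum. No source used here states the strand setting of the counting, so reads of Gm14207 and of the shared part of Dll4 cannot be told apart. Which gene these upstream regions act on was not tested.

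Across all 10 genes, 37 such neighbouring regions were listed, 5 of them higher and none lower in the authors' deposited table, where 8.33% of all regions were higher and 1.64% lower. Beside the pair near Dll4, they were a region 46.8 kb from Notch2 tied to Gm5544 (35.2 and 38.0 with FGF-2, 2.76 and 0.840 with serum; log2 fold 4.35, false discovery rate 8e-05 in the authors' deposited table, and in the edgeR fit 5.27 without serum library 1 and 3.67 without serum library 2), one 28.4 kb from Notch1 tied to Gm35978 (45.7 and 46.0 with FGF-2, 13.8 and 12.5 with serum; log2 fold 1.80, false discovery rate 0.00888) and one 13.1 kb from Jag1 tied to Slx4ip (39.0 and 41.0 with FGF-2, 9.21 and 17.6 with serum; log2 fold 1.58, false discovery rate 0.0448). The Jag1 neighbour had no call in the edgeR fit without FGF-2 library 1, FGF-2 library 2 or serum library 1 (adjusted p = 0.0519, 0.0622 and 0.0756). Jag2 had 8 neighbouring regions and Dll1 1, with no call, and Hey1 had none.

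Peaks were called by the authors in each library, and the count of Notch gene regions with a peak was 21 and 19 of 28 in the FGF-2 libraries and 26 and 26 of 28 in the serum libraries. Of all 40772 regions, 88.8% and 86.1% had a peak in the FGF-2 libraries and 83.9% and 81.2% in the serum libraries, and the lists held 50317 and 46712 peaks with FGF-2 and 44340 and 41975 with serum. No peak lay within 1 kb of Dll4, Dll1, Jag2 or Hey1 in any library, and Notch1 had 1, in serum library 1. The 4 libraries held 11840994 to 14156846 fragments, of which 28% to 35.3% fell in the regions of the table, the lowest share in serum library 2, whose input held 110273836 fragments against 12241177 to 15672630 in the other inputs. The part of this difference in the H3K27ac values was not tested.

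Among the 51 other pathway genes, 43 had a region in the authors' deposited table, 179 in all, of which 11 were higher and 4 lower, in 10 genes. These counts are near the shares of all regions, 8.33% and 1.64%, and are no result about the pathway. Furin, Neurl1a and Tle1, all with higher RNA, were the ones with a called region over the start site. The Furin region had 652 and 634 with FGF-2 and 375 and 307 with serum, the Neurl1a region 215 and 168 with FGF-2 and 72.7 and 63.5 with serum, and the Tle1 region 143 and 185 with FGF-2 and 101 and 77.7 with serum. Their log2 folds in the authors' deposited table were 0.92 for Furin, 1.49 for Neurl1a and 0.87 for Tle1. A second Furin region, 0.6 kb downstream of the start site, was higher as well. Away from start sites, regions of Neurl1a, Dtx2, Mib1, Maml2 and Dlk1 were higher in the authors' deposited table. Regions of Dner, Itch and Nrarp were lower there. The RNA of Dtx2 and Mib1 was called higher, that of Maml2, Dner and Itch had no call, and Dlk1 (6 counts with FGF-2 and 9 with serum) and Nrarp were not tested. The Nrarp region, 12 kb upstream of that Notch target gene, had 34.2 and 29.0 with FGF-2 and 87.5 and 57.7 with serum.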

How the data were processed

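Y1 cells with serum and FGF-2 were compared with cells given serum alone, and all statistics are FGF-2 over serum. Per the submitters' processing notes, STAR 2.5.2a, HTSeq 0.10.0, SAMtools 1.1, MACS2 2.2.6, bedtools 2.15.0, DESeq2, DiffBind and ChIPseeker were used with the mm10 build; these notes give no roles, strand setting or annotation. The authors deposited whole-number gene counts per RNA library, and rows that name no gene, which held 37% to 43.2% of all counts in a library, were left out. The deposited RNA comparison holds log2 fold changes and p-values; rerunning DESeq2 1.42.0 on the counts gave the same log2 values to within 5.55e-11, and it was not used otherwise. The authors deposited a region table with a signal per H3K27ac library, a log2 fold, a p-value and a false discovery rate, and their peak lists give a fold enrichment ratio and a −log10 q-value per peak.

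RNA was tested with edgeR 4.0.16 (TMM, filterByExpr by group with its minimum count of 10, robust quasi-likelihood F test) in R 4.3.3, all genes adjusted together; SEs and 95% intervals are from the same fit. The H3K27ac calls are the authors' own, and no source used here states their test's covariates or input handling. Dividing the deposited signal by the value of 1 read (0.951, 1, 0.921 and 0.836) returned whole reads for 100% of values to within 0.02, at least 1 in each region, and edgeR with library sizes set to total fragments was run on these as an alternative. Alternatives were DESeq2, limma 3.58.1, other scalings, no filter, a false discovery rate of 0.01, the replicate number as a block and each library left out. Peaks were matched to regions by an overlap of at least 1 base. The sum of 3 counts is used as the level that a count of 0 allows; intervals and floors cover counting error only.

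No 2 RNA libraries of a group agreed within sampling noise (chi-square per degree of freedom 9.58 to 25.6). The scripts were tested on simulated data. The genes, the other pathway genes and the marker lists were chosen with earlier results of these data known. All 10 genes are named; regions named are the one nearest each start site, every called one and, with none called, the one of lowest false discovery rate; other pathway genes follow the rule given with them. Rbpj, Spen, Nrarp, Hes6 and Gm14207 were chosen after their values were seen. So were the uncalled regions of Hes1, the H3K27ac regions of other pathway genes and neighbouring regions. Promoter sequences are from RefSeq, GRCm38.p6, whose coordinates are those of mm10.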

Additional observations from a re-analysis of the deposited data

How the results depend on the processing

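The RNA calls of the 7 Notch genes kept direction and threshold under every alternative run; with each library left out the counts were 3 higher and 4 lower throughout. The numbers of other pathway genes and of all genes were less stable, and the cause was not tested. At a false discovery rate of 0.01, 6 other pathway genes higher, 1441 of all genes higher and 1618 lower were called; upper-quartile scaling called 6 other pathway genes higher; library totals called 5 higher and 18 lower of the other pathway genes, and 1035 higher and 4673 lower of all genes. Leaving out single RNA libraries gave 7 to 10 higher and 9 to 12 lower pathway genes, and 1624 to 2417 higher and 1892 to 2540 lower of all genes. With the replicate block 12 other pathway genes were higher and 12 lower, with 2375 and 2642 of all genes, and no call of the 7 Notch genes changed. Same-numbered RNA libraries deviated from their group means with correlations of -0.10, 0.07 and 0.38. FGF-2 library 1 correlated best with serum library 2 (0.38), and FGF-2 library 2 with serum library 1 (0.32). The numbers were therefore not taken as pairs. An RNA fit with crossed numbers as the block was not run, so a pairing of that kind was not tested.

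For H3K27ac, the authors' false discovery rate at 0.01 left 1 Notch gene region higher, 1 other pathway region lower, and 2099 higher and 297 lower of all. edgeR on recovered reads called 5 Notch gene regions and 8 other pathway regions lower, 5120 of all regions higher and 1487 lower; limma called 4, 8 and 1448 lower. With the replicate block edgeR called 2 Notch gene regions higher and 3 lower, and of all regions 3863 higher and 856 lower. The next 2 alternatives were chosen after seeing the data. TMM scaling called 6 Notch gene regions, 10 other pathway regions and 2500 of all lower. Crossed replicate numbers as the block, tried because same-numbered libraries deviated with a correlation of -0.19, called 5 Notch gene regions lower, 21 other pathway regions higher and 11 lower, and 6105 of all higher and 2105 lower. Leaving out single libraries gave, for Notch gene regions, 1 to 3 higher and 1 to 6 lower, for other pathway regions 5 to 20 higher and 1 to 12 lower, and for all regions 1976 to 6261 higher and 435 to 2671 lower; a group of 1 library is assumed there to vary like the other. The lowest counts came without an FGF-2 library. The Jag1 start-site region turned to -0.14 without serum library 2 and to -0.083 with TMM scaling. Peak counts per library were within 1.5 times of those reported with stricter peaks or coverage. Depth limits what can be said of Dll1, Notch1 and Hey1 and of the weakest regions, and 2 libraries per group limit every H3K27ac call.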
